A study of Rattus norvegicus with 18 samples.

Results

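Histone deacetylase genes were followed in cultured heart muscle cells given a hypertrophic stimulus with or without the REV-ERB agonist SR9009. The genes were taken by name from a list of 10, Hdac1 to Hdac9 and Hdac11, and 8 of them have a row among the 17312 genes of the deposited expression table. Hdac6 and Hdac7 were not analysed here, so class II is represented by Hdac4, Hdac5 and Hdac9. The cells were NRVM, ventricular myocytes isolated from the hearts of 2-day-old Sprague-Dawley rats. All cultures were moved from serum to serum-free medium, then received SR9009 or vehicle for 24 h, then phenylephrine (PE). The groups were SR9009 followed by 0, 4 or 48 h of PE and vehicle followed by 0, 4 or 48 h of PE, with 3 mRNA libraries each and 18 in all. PE stimulates α1-adrenergic receptors and enlarges cultured myocytes. Within an arm, effects of PE and of longer culture cannot be told apart, since the labels list no culture of 4 or 48 h that lacked PE.

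Histone deacetylases remove acetyl groups from lysines of histones and other proteins, and gene repression is their best known function. Class I enzymes (Hdac1, Hdac2, Hdac3 and Hdac8) are mainly nuclear and, except for Hdac8, work inside large corepressor complexes. Class IIa enzymes (Hdac4, Hdac5, Hdac7 and Hdac9) have little catalytic activity of their own, bind MEF2 transcription factors, and leave the nucleus when stress-activated kinases phosphorylate them. Mice lacking Hdac5 or Hdac9 show exaggerated cardiac hypertrophy, whereas Hdac2-deficient mice have been reported to resist it. REV-ERB receptors repress their targets through the NCoR corepressor, which carries Hdac3. Messenger RNA levels do not report where a deacetylase protein is or how active it is.

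The authors deposited 1 FPKM per gene and group (fragments scaled by transcript length and by the number of mapped fragments, and so comparable between genes), together with confidence bounds below and above it. Values per library were not used here, so there is no standard deviation, p-value or test, and the bounds stand in for the error. The labels do not say whether the 3 libraries of a group came from separate cultures. Each difference given is one of log2(FPKM + 1) values. Parentheses after it hold its range, taken between opposite bounds of both groups and thus as wide as they permit. A gene met the range rule when that range excluded 0, and the size rule when the difference was also at least 1, which is 2-fold. All 8 genes averaged at least 1 FPKM, had a usable estimate in every group and were never listed at 0. Their bounds reached out from the value by between 13.9% and 38.3% of it, the widest being that of Hdac11, the lowest of the 8 genes. The cardiomyocyte label was checked on 10 markers, 9 of which have a row and sum to between 11827 and 38373 FPKM in the 6 groups. The sums were 937 to 2086 FPKM for 10 fibroblast markers, of which Col1a2 was listed at 0 in every group, 1735 to 4666 for 9 smooth muscle markers, 13.0 to 22.5 for 8 endothelial markers and 7.48 to 24.2 for 9 macrophage markers. The smooth muscle sums rest mainly on Des, Tagln and Acta2, so they were not taken as a measure of smooth muscle cells. In such mixed cultures fewer cells of a type and less RNA per cell cannot be told apart.

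No class I transcript met a rule in any comparison. Hdac2 had 75.0, 79.1 and 72.3 FPKM at 0, 4 and 48 h of PE with SR9009, against 79.2, 88.7 and 68.1 FPKM with vehicle. Hdac3 (chromosome 18, 31073057 to 31094347 on rn6, the build of all loci given for genes) had 29.4, 33.3 and 31.6 FPKM with SR9009, against 30.2, 31.6 and 30.3 FPKM with vehicle. Its highest value was 1.13 times its lowest, the smallest spread of the 8 genes. Hdac1, which forms the catalytic pair of the NuRD, Sin3 and CoREST complexes with Hdac2, had 18.0, 19.2 and 18.9 FPKM with SR9009, against 18.5, 21.3 and 22.5 FPKM with vehicle. Its bounds overlapped among all 6 groups. Hdac8, which deacetylates the cohesin subunit SMC3, ranged from 3.99 FPKM (SR9009, 4 h) to 5.14 FPKM (SR9009, 0 h). The class I differences lay between -0.30 and 0.27 over the 7 planned comparisons of 2 groups and 2 interactions, and 0 of these 36 gene and comparison pairs met the range rule, which 0.856% (interaction at 4 h) to 31.9% (48 h of PE in vehicle) of all genes met. At 48 h of PE against 4 h, a comparison added after the values were seen, Hdac2 differed by -0.13 (-0.56 to 0.30) with SR9009 and by -0.38 (-0.80 to 0.05) with vehicle, and neither met a rule. Hdac2 (chromosome 20, 43084870 to 43108198), Hdac1 (chromosome 5, 147716664 to 147743723) and Hdac8 (chromosome X, 72163777 to 72370051) overlap no other row of the table, nor do the other 5 genes.

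**Figure D1:**
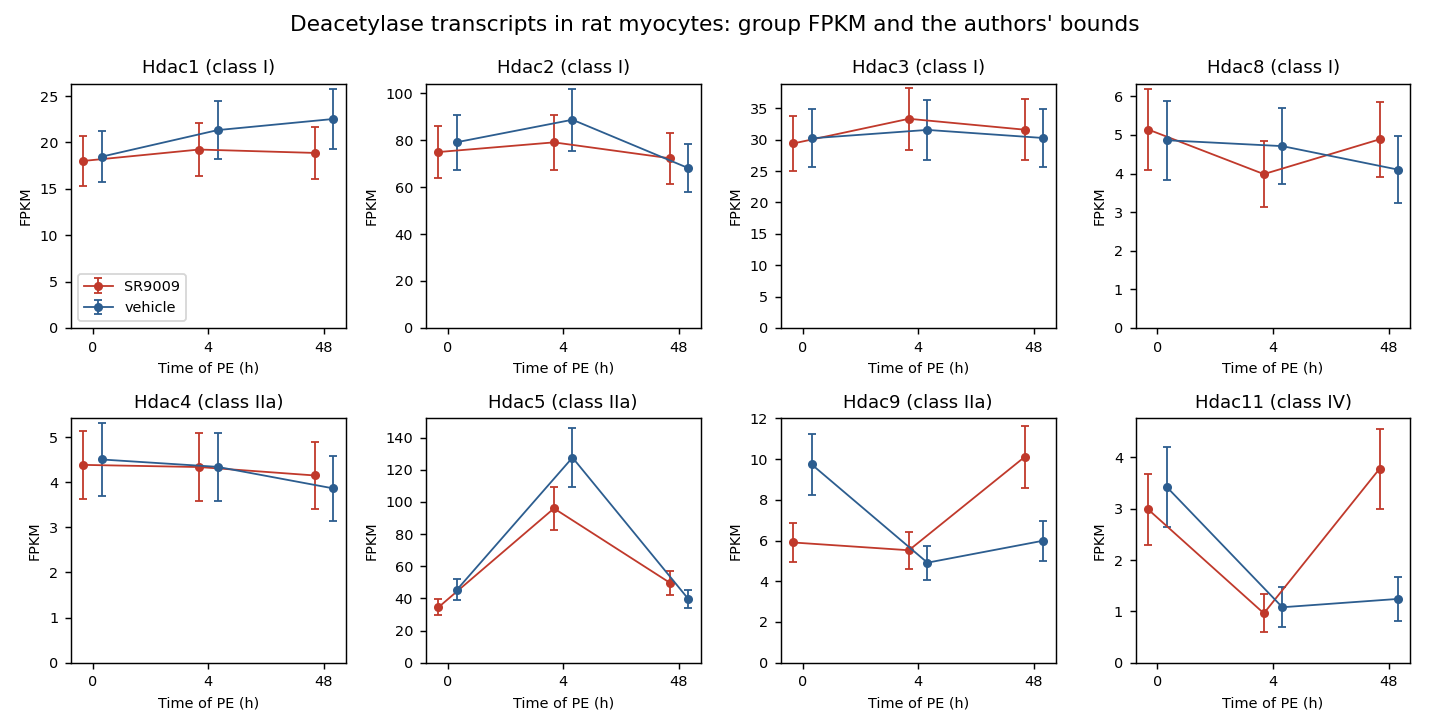
Group FPKM (vertical axis, linear from 0) of the 8 measured genes at 0, 4 and 48 h of PE (evenly spaced categories), with SR9009 in red and vehicle in blue; bars are the authors' confidence bounds. Hdac1, Hdac2, Hdac3, Hdac8 and Hdac4 are nearly level, and Hdac5 peaks at 4 h in both arms. Hdac11 separates the arms at 48 h, and Hdac9 does so at 0 h and 48 h in opposite directions.

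Hdac5 had the largest difference of the 8 genes at 4 h of PE on the log2(FPKM + 1) scale. It had 34.4, 96.0 and 49.8 FPKM at 0, 4 and 48 h of PE with SR9009, against 45.3, 128 and 39.8 FPKM with vehicle. In both arms the 4 h value stood clear of the bounds at 0 and 48 h. At 4 h against 0 h the difference was 1.45 (1.05 to 1.86) with SR9009 and 1.47 (1.06 to 1.89) with vehicle. Both met the size rule, as did 4.48% of all genes with SR9009 and 5.08% with vehicle. Only 70 of 10408 genes with SR9009 and 123 of 10418 with vehicle had a larger one. The interaction, which is the PE difference with SR9009 minus that with vehicle, was -0.02 at 4 h (-0.83 to 0.80). Hdac5 lies on chromosome 10, 90140183 to 90169850.

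The 4 h value of Hdac5 did not persist. In vehicle it was 87.8% of the 0 h value at 48 h of PE, with a difference of -0.18 (-0.58 to 0.22). With SR9009 it was 1.45 times the 0 h value, a difference of 0.52 (0.10 to 0.94) that met the range rule and not the size rule. At 48 h against 4 h the difference was -0.93 (-1.35 to -0.52) with SR9009 and -1.66 (-2.06 to -1.25) with vehicle. SR9009 against vehicle gave -0.39 (-0.79 to 0.02) at 0 h and 0.32 (-0.10 to 0.73) at 48 h, and -0.41 at 4 h with a range that just reached 0, so none met a rule. The interaction at 48 h was 0.70 (-0.12 to 1.52).

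The order of the levels changed with Hdac5. At 0 h of PE Hdac2 ranked above Hdac5 in both arms, with bounds apart. At 4 h with vehicle Hdac5 was the highest of the 8 genes and its bounds lay above those of Hdac2, whereas with SR9009 it ranked first but the bounds overlapped. At 48 h Hdac2 was again first and clear of Hdac5 in both arms. Hdac1 came below Hdac2, Hdac5 and Hdac3 in every group. Lower still, neighbours among Hdac8, Hdac4 and Hdac9 often had overlapping bounds. Hdac11 was lowest in all 6 groups, with bounds overlapping those of Hdac4 at 0 h in both arms and at 48 h with SR9009.

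The base sequences just upstream of the 3 measured class IIa genes are shown because these genes behaved differently under PE. They come from RefSeq, cover the 250 bases before the annotated start and are written along the gene's strand. Capitals mark matches to any of 7 motifs: the MEF2 consensus, the CArG box bound by SRF, the cAMP response element TGACGTCA and its shorter core TGACG, the AP-1 site TGANTCA, the nuclear receptor motif AGGTCA and the E-box CACGTG, each searched on both strands.
Hdac5 (GRCr8, chr10:87688055-87688304, minus strand): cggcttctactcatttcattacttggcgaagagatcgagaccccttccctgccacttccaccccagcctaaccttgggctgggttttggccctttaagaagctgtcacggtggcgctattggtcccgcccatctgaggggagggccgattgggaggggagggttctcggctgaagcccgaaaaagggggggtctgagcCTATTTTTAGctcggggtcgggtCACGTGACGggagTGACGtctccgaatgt
Hdac4 (GRCr8, chr9:100197638-100197887, minus strand): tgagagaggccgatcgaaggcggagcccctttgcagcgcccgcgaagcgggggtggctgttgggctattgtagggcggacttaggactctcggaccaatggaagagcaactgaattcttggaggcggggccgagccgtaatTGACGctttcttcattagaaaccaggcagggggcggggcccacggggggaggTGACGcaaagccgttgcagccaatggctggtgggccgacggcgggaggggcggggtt
Hdac9 (GRCr8, chr6:57052572-57052821, minus strand): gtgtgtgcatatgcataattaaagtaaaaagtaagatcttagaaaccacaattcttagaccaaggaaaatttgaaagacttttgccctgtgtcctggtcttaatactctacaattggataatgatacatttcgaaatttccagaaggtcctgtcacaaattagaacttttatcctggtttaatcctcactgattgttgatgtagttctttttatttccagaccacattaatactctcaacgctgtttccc

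The Hdac5 window holds a MEF2 consensus that begins 52 bases before the start and is listed in 3.07% of 27457 rat windows of the same length. It also holds an E-box 29 bases before the start (5.79% of windows), which overlaps the first of 2 TGACG cores, at 25 and 16 bases (19.0% of windows have a core). The Hdac4 window has cores at 109 and 57 bases and none of the other motifs. The full response element occurs in 1.70% of windows, the AP-1 site in 6.36%, AGGTCA in 13.7% and the CArG box in 1.5%. The Hdac9 window has no match to any of the 7 motifs and 34.4% G and C, against 58.8% for Hdac5, 64.4% for Hdac4 and a median of 52.0%. Of the 8 measured genes 7 have a window, and the MEF2 consensus occurs in that of Hdac5 alone. The TGACG core also occurs in the windows of Hdac1 and Hdac8, and AGGTCA in that of Hdac8. A match describes letters only, and genes with several starts, such as Hdac9, have other upstream windows that were not searched.

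Hdac4 and Hdac9 did not share the 4 h peak of Hdac5. Hdac4 (chromosome 9, 99057086 to 99299715) had 4.38, 4.34 and 4.15 FPKM at 0, 4 and 48 h of PE with SR9009, against 4.50, 4.34 and 3.86 FPKM with vehicle. Its bounds overlapped among all 6 groups. Hdac9, whose locus (chromosome 6, 53488883 to 54059119) also gives rise in mammals to a short form without the catalytic domain, had 5.91, 5.52 and 10.1 FPKM with SR9009, against 9.74, 4.91 and 5.99 FPKM with vehicle. The 2 high groups were thus SR9009 at 48 h and vehicle at 0 h, and the bounds of these 2 groups overlapped none of the other 4. The table gives no value per isoform, so the forms of Hdac9 are summed.

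In the vehicle arm Hdac9 was lower under PE, by -0.86 (-1.27 to -0.45) at 4 h and -0.62 (-1.03 to -0.21) at 48 h. In the SR9009 arm the difference was -0.08 (-0.49 to 0.33) at 4 h and 0.69 (0.28 to 1.09) at 48 h. The PE differences of the 2 arms therefore had opposite signs at 48 h, and the interaction of 1.30 (0.49 to 2.12) met the size rule. At 4 h the interaction was 0.78, with only 49 of 10394 genes above it, but its range of -0.03 to 1.59 included 0. SR9009 against vehicle gave -0.64 (-1.05 to -0.23) at 0 h, before PE, then 0.14 (-0.26 to 0.55) at 4 h and 0.67 (0.26 to 1.07) at 48 h. Hdac9 was thus lower with SR9009 before PE and higher with it after 48 h by the range rule, and neither difference met the size rule.

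Hdac11, the only class IV enzyme and one that also removes fatty acyl groups, was the lowest in level and among the most variable. It had 2.99, 0.961 and 3.78 FPKM at 0, 4 and 48 h of PE with SR9009, against 3.42, 1.08 and 1.24 FPKM with vehicle. At 4 h it was low in both arms. At 48 h the bounds of the arms did not overlap, and the SR9009 value was 3.04 times the vehicle value. The locus is on chromosome 4, 122781095 to 122798355.

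At 4 h against 0 h Hdac11 differed by -1.02 (-1.56 to -0.50) with SR9009 and by -1.09 (-1.62 to -0.56) with vehicle, and both met the size rule. The SR9009 difference fell just short of the required size with median-of-ratios scaling (-0.96), and both did with quantile normalization (-0.77 with SR9009 and -0.89 with vehicle). At 48 h against 0 h the difference was 0.26 (-0.23 to 0.76) with SR9009 and -0.98 (-1.52 to -0.45) with vehicle. SR9009 against vehicle gave -0.15 (-0.66 to 0.36) at 0 h, -0.08 (-0.63 to 0.46) at 4 h and 1.09 (0.58 to 1.61) at 48 h, which met the size rule. The interaction at 48 h was 1.24 (0.22 to 2.28). From 4 to 48 h the difference was 1.28 (0.78 to 1.80) with SR9009 and 0.11 (-0.44 to 0.66) with vehicle. Because Hdac11 is near 1 FPKM in several groups, adding 1 before the logarithm understates these differences.

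**Figure D2:**
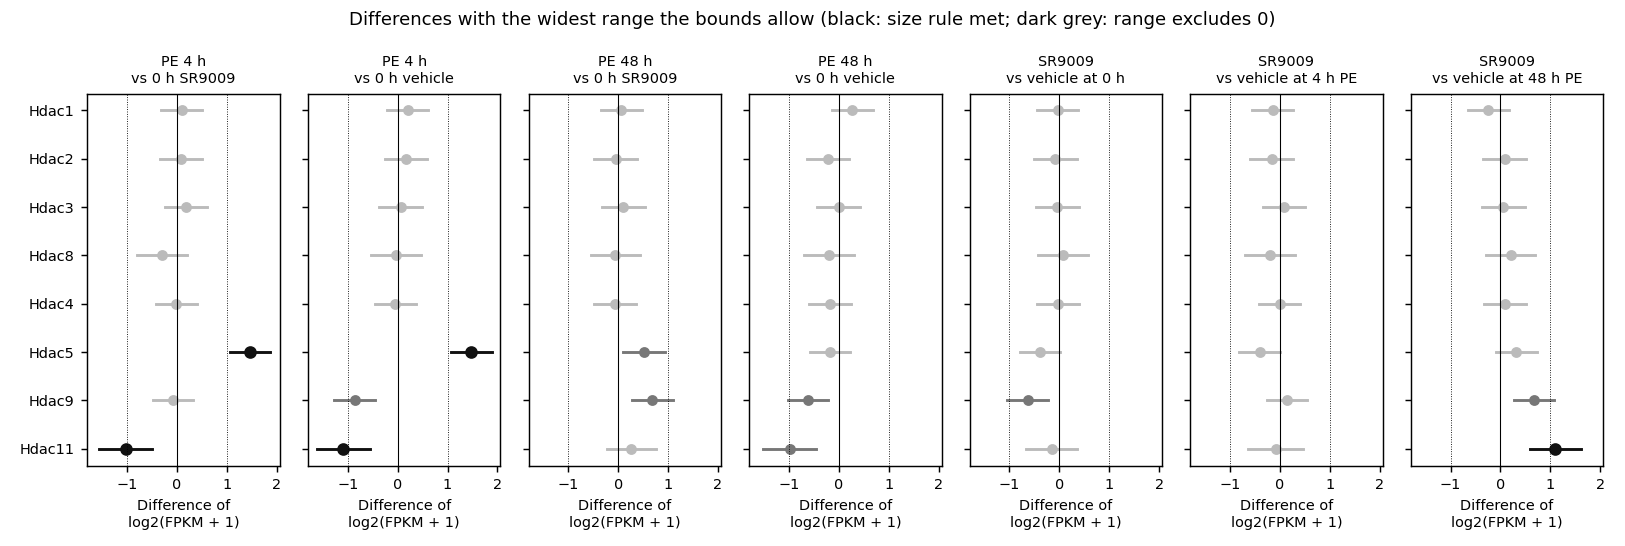
Differences of log2(FPKM + 1) (horizontal axis) for the 8 genes in 7 comparisons, with points for the difference, lines for the widest range the bounds allow, and dotted lines at -1 and 1. Black marks the size rule, dark grey the range rule alone and light grey neither; Hdac5 and Hdac11 are black at 4 h of PE in both arms, and Hdac11 is black for SR9009 against vehicle at 48 h.

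Set against all genes, these counts were as follows. At 4 h of PE against 0 h, 2 of 8 genes met the size rule in each arm, Hdac5 higher and Hdac11 lower, where 4.48% of 10408 genes did with SR9009 and 5.08% of 10418 with vehicle. The range rule took in 2 of 8 with SR9009 and 3 of 8 with vehicle, where 27.4% of all genes with SR9009 and 28.0% with vehicle met it. At 48 h against 0 h, 0 of 8 met the size rule in either arm (2.42% of genes with SR9009 and 8.82% with vehicle), and 2 of 8 in each arm met the range rule (19.1% with SR9009 and 31.9% with vehicle). For SR9009 against vehicle the size rule was met by 0 of 8 at 0 h (1.07% of genes), 0 of 8 at 4 h (1.55%) and 1 of 8 at 48 h (6.89%). The range rule was met by 1 of 8 at 0 h (9.84%), 0 of 8 at 4 h (14.5%) and 2 of 8 at 48 h (28.6%). The interaction met the size rule in 0 of 8 at 4 h (0.423%) and 2 of 8 at 48 h (9.05%), and the range rule in the same numbers (0.856% at 4 h and 13.2% at 48 h). From 4 to 48 h, 1 of 8 met the size rule in each arm (4.49% of genes with SR9009 and 6.22% with vehicle), and 3 of 8 with SR9009 and 1 of 8 with vehicle met the range rule (26.5% of genes with SR9009 and 27.1% with vehicle). The shares of the family under the range rule are close to those of all genes in most comparisons, and 8 genes are too few to set them apart.

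The classes compared as follows over the 7 comparisons and 2 interactions, which share groups and are not independent. Class I met the range rule in 0 of 36 pairs, class II in 9 of 27 and Hdac11 in 5 of 9. Of all genes, between 0.856% (interaction at 4 h) and 31.9% (48 h of PE in vehicle) met it in these comparisons. All 9 class II pairs were in Hdac5 or Hdac9. The median class I difference at 4 h of PE was 0.08 with SR9009 and 0.11 with vehicle, near the medians of all genes of -0.06 with SR9009 and -0.02 with vehicle. With 4 class I, 3 class II and 1 class IV genes, the counts of pairs cannot be set apart from the share of all genes that met the rule.

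In summed levels, class I varied little and class II followed Hdac5. The 4 class I genes summed to 127, 136 and 128 FPKM at 0, 4 and 48 h of PE with SR9009, against 133, 146 and 125 FPKM with vehicle. The 3 class II genes summed to 44.7, 106 and 64.1 FPKM with SR9009, against 59.5, 137 and 49.6 FPKM with vehicle. This sum holds Hdac4, Hdac5 and Hdac9 only and leaves out Hdac10, a class IIb gene at 3.07 to 4.53 FPKM. Class II therefore made up 26.0%, 43.8% and 33.4% of the 2 classes with SR9009, against 31.0%, 48.3% and 28.4% with vehicle. With vehicle the widest range that the bounds allow for this share was 40.9% to 55.8% at 4 h and 25.0% to 37.7% at 0 h, and with SR9009 it was 36.8% to 51.2% at 4 h and 20.5% to 32.2% at 0 h. At 48 h the ranges of the arms overlapped, at 26.9% to 40.6% with SR9009 and 22.7% to 34.9% with vehicle. Hdac5 supplied 77.0%, 90.7% and 77.7% of class II with SR9009, against 76.1%, 93.2% and 80.1% with vehicle, and Hdac2 supplied 54.5% to 60.6% of class I in the 6 groups.

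**Figure D3:**
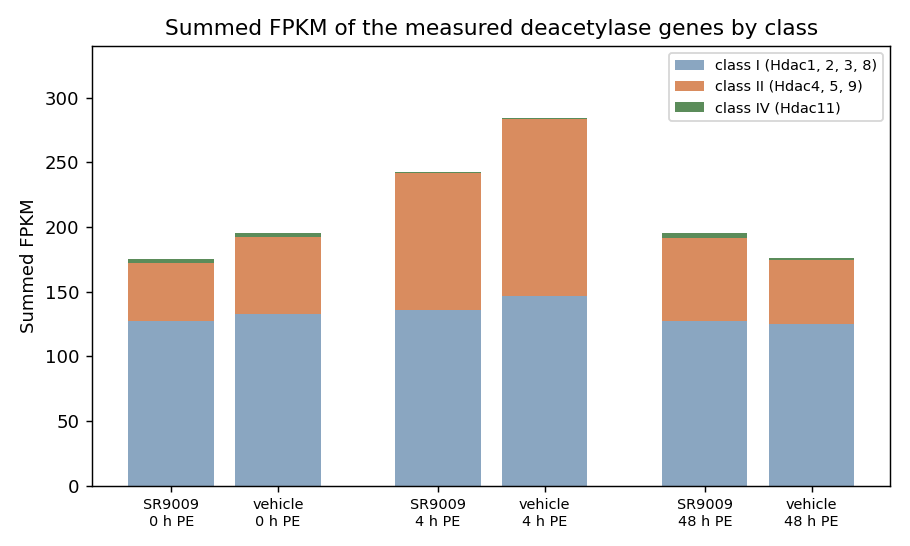
Stacked bars of summed FPKM (vertical axis from 0) of class I, class II and class IV genes in the 6 groups, SR9009 beside vehicle at each time of PE. The class I part stays between 125 and 146 FPKM, while the class II part reaches 106 FPKM with SR9009 and 137 FPKM with vehicle at 4 h.

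No corepressor partner of class I in 3 lists met the size rule in the comparisons described here. At 4 h of PE in vehicle, 0 genes met the size rule among 8 measured NuRD, 7 Sin3 and 5 CoREST genes, where 5.08% of all genes did. The list medians were 0.02 for NuRD, -0.07 for Sin3 and 0.05 for CoREST. The range rule was met by 1 Sin3 gene as lower and 1 CoREST gene as higher, where 28.0% of all genes met it. At 48 h of PE in vehicle 0 genes met the size rule in each of these lists (8.82% of all genes). The same held for SR9009 against vehicle at 48 h (6.89%). Lists this short cannot set a count of 0 apart from these shares. Ncor1, the corepressor on which REV-ERB and Hdac3 meet, had 22.7, 19.9 and 21.9 FPKM at 0, 4 and 48 h of PE with SR9009, against 22.6, 21.7 and 20.6 FPKM with vehicle. SR9009 against vehicle gave 0.01 (-0.41 to 0.42) at 0 h, -0.12 (-0.53 to 0.29) at 4 h and 0.09 (-0.32 to 0.50) at 48 h for Ncor1, so neither rule was met.

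The receptors that recruit this complex were measured too. Nr1d2, which encodes REV-ERBβ, had 35.7, 17.1 and 25.6 FPKM with SR9009, against 39.2, 20.4 and 21.6 FPKM with vehicle, and SR9009 against vehicle met neither rule at any time. Nr1d1 (REV-ERBα) had 12.2, 11.2 and 13.4 FPKM with SR9009, against 15.3, 15.2 and 17.7 FPKM with vehicle. It overlaps Thra on the other strand and its bounds are wide, so its differences are uncertain. Hdac3 and Ncor1 thus differed between the arms by no more than 0.12 in either direction at any time, within their ranges.

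Among the kinases that phosphorylate class IIa deacetylases, 1 of 15 measured genes, Sik1, met the size rule at 4 h of PE in each arm. Of all genes, 4.48% with SR9009 and 5.08% with vehicle met it. In each arm other kinase genes met the range rule at 4 h, some as higher and some as lower. Salt-inducible kinase 1 (Sik1) had 11.9, 96.4 and 27.5 FPKM at 0, 4 and 48 h of PE with SR9009, against 10.9, 160 and 70.4 FPKM with vehicle. It was lower with SR9009 at 48 h, by -1.33 (-1.76 to -0.89). The median of the 15 kinase genes at 4 h of PE was 0.11 with SR9009 and 0.26 with vehicle. The 14-3-3 proteins hold phosphorylated class IIa enzymes in the cytoplasm, and with the exportin Xpo1 they gave 7 measured genes. None met the size rule at 4 h or 48 h of PE in either arm, and 1 with SR9009 and 4 with vehicle met the range rule as higher at 4 h, where 27.4% of all genes with SR9009 and 28.0% with vehicle met it in either direction. At 48 h all 7 were lower with SR9009 than with vehicle, with a median of -0.37, and 3 met the range rule, as did 28.6% of all genes.

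Of the factors bound by class IIa deacetylases, the MEF2 proteins are the best known. Mef2a had 147, 109 and 139 FPKM with SR9009, against 151, 148 and 99.7 FPKM with vehicle. At 48 h of PE against 0 h Mef2a differed by -0.08 (-0.45 to 0.29) with SR9009 and by -0.59 (-0.96 to -0.23) with vehicle, and between the arms at 48 h by 0.47 (0.09 to 0.86). Mef2d had 34.0, 47.4 and 44.4 FPKM with SR9009, against 42.3, 49.7 and 37.3 FPKM with vehicle, and Mef2c was not analysed here. Of 8 measured partner factors 2 with SR9009 and 3 with vehicle met the size rule as higher at 4 h of PE, and 0 as lower, where 4.48% of all genes with SR9009 and 5.08% with vehicle met it in either direction. The 3 genes with vehicle were the cofactor gene Myocd, the zinc finger factor Gata4 and the coactivator gene Camta1. Myocd and Gata4 each differed by 1.15 and Camta1 by 1.61 (0.64 to 2.58). At 4 h with SR9009 the range rule was met as lower by Mef2a alone, at -0.42 (-0.79 to -0.06). Several others met it as higher, Mef2d among them at 0.47 (0.05 to 0.89), where 27.4% of all genes met it in either direction. Camta1, whose relative Camta2 drives hypertrophy in mice when released from Hdac5, had 26.7, 52.9 and 28.7 FPKM with SR9009, against 22.7, 71.3 and 91.6 FPKM with vehicle. At 48 h it was lower with SR9009 by -1.64 (-2.37 to -0.97).

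Genes known as MEF2 targets lay mostly above 0 at 4 h of PE with vehicle and did not move as a block between the arms at 48 h. Of 10 measured, 2 met the size rule as higher at 4 h of PE in each arm, and 0 as lower. The 2 were the nuclear receptor Nr4a1 and the small heat shock gene Hspb7. Of all genes, 4.48% with SR9009 and 5.08% with vehicle met it in either direction. The range rule was met by several more as higher with vehicle and by none as lower, where 28.0% of all genes met it. With SR9009 (27.4% of all genes) it was met in both directions, with the AP-1 gene Jun lower at -0.74 (-1.15 to -0.33). Hspb7 had 443, 1074 and 618 FPKM at 0, 4 and 48 h of PE with SR9009, against 431, 1253 and 867 FPKM with vehicle. For SR9009 against vehicle at 48 h the list split by the size rule, which 6.89% of all genes met, with 2 higher and 2 lower. The list median was 0.25, where the median of all genes was -0.04. The calcium-binding Hrc (1.42) and the muscle creatine kinase Ckm, with 786 FPKM with SR9009 and 327 FPKM with vehicle, were higher. The sarcomere-associated Xirp2 (-3.96) and Jun (-1.02) were lower.

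**Figure D4:**
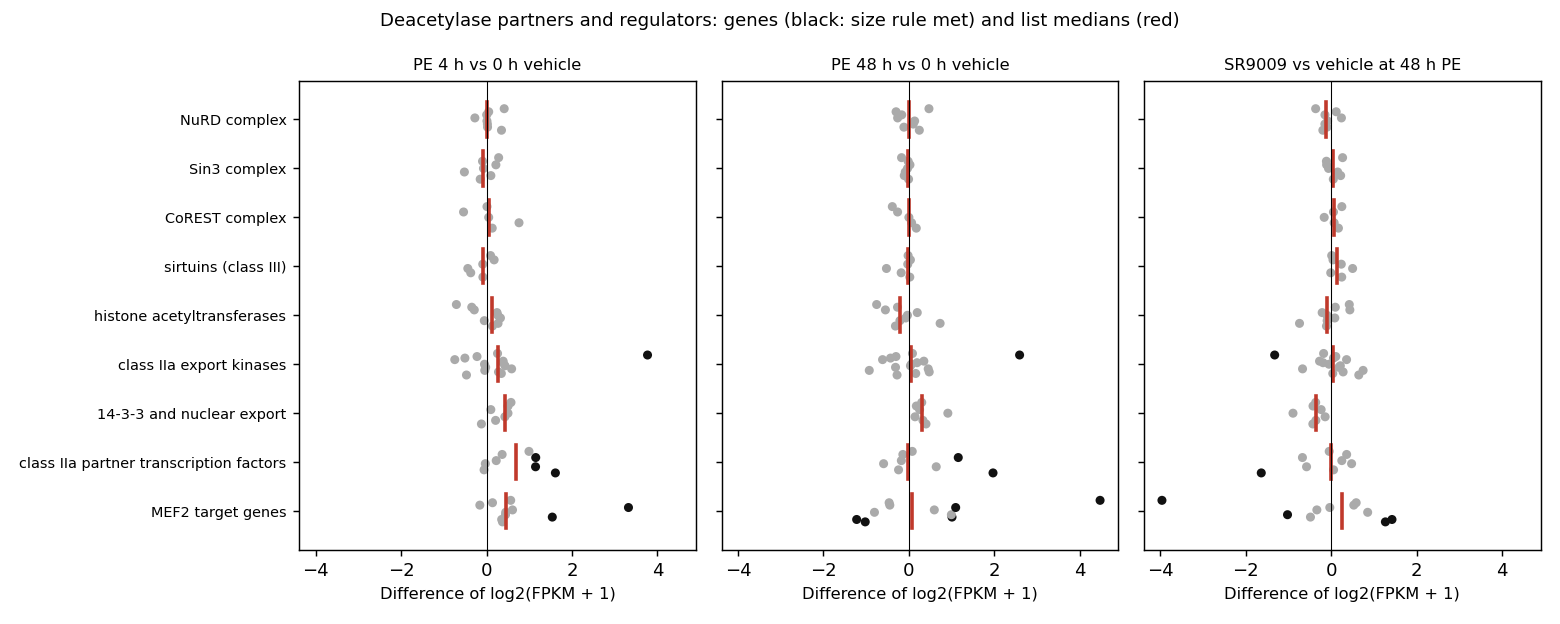
Differences of log2(FPKM + 1) (horizontal axis) for genes of 9 lists around the deacetylases (rows), in 3 comparisons. Black points met the size rule, grey points did not and red bars are list medians; the corepressor lists, sirtuins and acetyltransferases have no black point, and the isolated point among the kinases is Sik1.

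Other enzymes that act on acetyl marks stayed within the size rule. The 6 measured sirtuins, the NAD-dependent class III deacetylases, and the 9 measured histone acetyltransferases had 0 genes meeting the size rule in any of the 7 comparisons. Between 1.07% (SR9009 against vehicle at 0 h) and 8.82% (48 h of PE in vehicle) of all genes met it. Some acetyltransferase genes met the range rule, in both directions at 48 h of PE in vehicle, where 31.9% of all genes met it. For SR9009 against vehicle at 48 h the median was 0.14 for the sirtuins and -0.10 for the acetyltransferases.

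Profiles most like those of the 3 most variable genes were sought among 8322 genes of at least 5 FPKM, by the root mean square distance between centred log2(FPKM + 1) values over the 6 groups. For Hdac5 the closest were Dopey2 (0.10), the acyltransferase gene Agpat3 (0.14) and the guanine deaminase gene Gda (0.18). Agpat3 had 15.5, 45.7 and 18.4 FPKM at 0, 4 and 48 h of PE with SR9009, against 22.8, 63.9 and 18.3 FPKM with vehicle. For Hdac11 they were Rec114 (0.07), the PDZ and LIM domain gene Pdlim2 (0.10) and the potassium channel subunit Kcng2 (0.11). Kcng2 had 78.3, 37.8 and 76.9 FPKM with SR9009, against 84.0, 34.6 and 38.1 FPKM with vehicle, so it too was low at 4 h in both arms and low at 48 h with vehicle. Adding 1 shrinks the changes of a gene as low as Hdac11 more than those of these 3, so its closest genes depend on that choice. Rec114 at 4 h with SR9009 had 16.1 FPKM, against 33.3 at 0 h, a smaller fall in proportion than that of Hdac11. For Hdac9 they were Pirt (0.11), the ceramide synthase gene Cers4 (0.12) and the nucleotide exchange factor gene Arhgef1 (0.12). With 6 points and so many genes, close matches are easily found, so these are descriptions.

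Markers listed for several cell types moved in the same comparisons. At 4 h of PE the summed fibroblast markers were 937 FPKM against 1840 at 0 h with SR9009, and 1220 against 2086 with vehicle. The cardiomyocyte markers summed to 24302 against 11827 with SR9009 and 35180 against 17230 with vehicle, of which the cardiac actin gene Actc1 alone was 10174 against 3160 with SR9009 and 17773 against 4918 with vehicle. Of 9 cardiomyocyte markers, 2 with SR9009 and 1 with vehicle met the size rule as higher at 4 h. The share of all genes that met it in either direction was 4.48% with SR9009 and 5.08% with vehicle. A difference above 0 was found for 7 of the 9 markers with SR9009 and 9 with vehicle. At 48 h the fibroblast markers summed to 1314 FPKM with SR9009 and 1327 with vehicle. Of 9 tested, 2 met the size rule as higher with SR9009 and 0 as lower, where 6.89% of all genes met it. At 48 h against 0 h, 0 of these 9 met it with SR9009 (2.42% of all genes) and 6 were lower by it with vehicle (8.82%). The cardiomyocyte markers then summed to 27203 FPKM with SR9009 and 38373 with vehicle, but 6 of 9 were higher in level with SR9009. Actc1 had 9484 FPKM with SR9009 and 21530 with vehicle, whereas the troponin gene Tnnt2 had 4176 FPKM with SR9009 and 2945 with vehicle. Of 8 proliferation genes 7 met the size rule as lower with SR9009 at 48 h, where 6.89% of all genes met it in either direction. All 8 summed to 129 FPKM with SR9009 and 390 with vehicle. Macrophage markers summed to 9.17, 9.10 and 7.48 FPKM at 0, 4 and 48 h with SR9009, against 24.2, 23.6 and 15.3 FPKM with vehicle. These sums were thus lower with SR9009 at every time. Smooth muscle markers summed to 2144 FPKM with SR9009 and 4666 with vehicle at 48 h. Between the arms, 0 of 9 met the size rule as higher and 3 as lower with SR9009, where 6.89% of all genes met it. Of the 48 h smooth muscle sums Des alone gave 1281 FPKM with SR9009 and 2706 with vehicle. Tagln gave 524 FPKM with SR9009 and 1036 with vehicle, and Acta2 gave 220 FPKM with SR9009 and 624 with vehicle. Because these genes supplied most of both sums, the sums were not taken as a measure of smooth muscle cells. Only Myh11 (14.6 against 11.6 FPKM), Smtn (24.0 against 14.5) and Mylk (5.77 against 4.36) were higher in level with SR9009. The part of these shifts in the values of Hdac5, Hdac9 and Hdac11 was not tested.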

How the data were processed

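Gene expression was measured by sequencing of 18 stranded mRNA libraries, 3 in each of 6 groups taken from the sample titles. The deposited table holds 1 FPKM per gene and group with confidence bounds on the same scale and a status, per the file headers. FastQC, Trim Galore, TopHat, Cuffdiff and rn6 are named without versions per the submitters' processing notes. The confidence level, the scaling between libraries, the strand setting of the counting and the depth are not stated in the headers or labels. With values already combined by the authors, the limma fit planned for values per library was not run, and a rule of size took its place.

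Values were taken as log2(FPKM + 1) for genes averaging at least 1 FPKM, with no fold against a value of 0. Estimates with a status other than OK (31 values) or outside their own bounds (172 values) were left out. Python 3.11.15, pandas 2.3.3 and numpy 2.4.6 were used, and the rules were tested on simulated data. Locus starts were read as counted from 0 and are printed from 1, because gene spans then equal those of 2074 symbols in a RefSeq table, against 277 otherwise. Upstream sequences are from RefSeq (GRCr8).

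The genes, the 16 partner lists, the 6 marker lists and the rule for named genes were chosen with earlier results of these data known. The rule names all deacetylase genes measured, Nr1d1, Nr1d2, Ncor1 and the MEF2 genes, with 1 further gene and the list that holds it not reported here, up to 3 genes per list that met the size rule in a comparison described, and the 3 genes of closest profile. Jun, named as the second gene of 2 lower MEF2 targets, was added after its value was seen. Alternatives were another pseudocount, other filters, 3 scalings and a smaller size limit.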

Additional observations from a re-analysis of the deposited data

How the results depend on the processing

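Under the alternatives, the number of the 8 genes meeting the size rule changed as follows. With a filter at a mean of 5 FPKM, Hdac11, Hdac4 and Hdac8 were no longer tested, and the count was 1 at 4 h of PE against 0 h in each arm, 0 for SR9009 against vehicle at 48 h, 1 for the interaction at 48 h and 0 at 48 h against 4 h with SR9009. With quantile normalization it was 1 at 4 h against 0 h in each arm, and with median-of-ratios scaling 1 in the SR9009 arm, in each case without Hdac11. Both a pseudocount of 0.1 and rescaling to equal FPKM sums gave 1 instead of 0 at 48 h against 0 h in vehicle, Hdac11 being at -1.39 under the smaller pseudocount and -1.13 under the rescaling. With a minimum of 1.5-fold it was 3 at 4 h against 0 h in vehicle, 2 at 48 h against 0 h in vehicle, 1 at the same time in the SR9009 arm, 1 for SR9009 against vehicle at 0 h, 2 at 48 h and 3 at 48 h against 4 h with SR9009, the added pairs being of Hdac9, Hdac11 and Hdac5. Rescaling to equal sums also put Hdac9 at 4 h in vehicle past the rule, at -1.03. The 4 h calls of Hdac5 and the 48 h interaction of Hdac9 kept their side of the rule under every alternative run, and no called difference changed sign. The class II shares stayed within their ranges with quantile normalization and with the filter at a mean of 5 FPKM. Rescaling to equal sums and median-of-ratios scaling multiply all genes of a group alike, so they cannot change a share. The remaining alternatives were not run on the shares.

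Rescaling to equal sums moved the median of all genes at 4 h of PE in vehicle to -0.20 and the split of genes meeting the size rule to 198 higher and 407 lower, against 287 and 242 as deposited. For SR9009 against vehicle at 48 h the split became 341 and 391, against 243 and 474. No paired analysis was possible because the table holds 1 value per group, so neither a block on replicate number nor leaving out a replicate was run. Depth is unknown and the bounds limit precision, most for Hdac11.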

Other observations

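Hdac10, a class IIb gene that is not on the list above, had 4.53, 3.90 and 3.67 FPKM at 0, 4 and 48 h of PE with SR9009, against 4.25, 3.07 and 4.39 FPKM with vehicle. It met neither rule in any comparison or interaction, and at 4 h of PE against 0 h it differed by -0.17 (-0.73 to 0.38) with SR9009 and by -0.37 (-0.94 to 0.21) with vehicle. Hdac1l, a gene named for its likeness to Hdac1, stayed below 0.1 FPKM in all 6 groups and was listed at 0 in vehicle at 48 h. Reads of Hdac1 and Hdac1l could be divided between them by the counting, so both are uncertain to that extent, and Hdac1 itself had 18.0 FPKM or more in each group.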
